A study of Mus musculus with 9 samples.

Results

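Crypt epithelium of the mouse intestine titled Bcathet was compared with epithelium titled Control. The comparison used 6 of the 9 libraries of the series, 3 per group, with 1 library per group at days 8, 9 and 10 after induction of a mutant β-catenin allele. A gene entered it when it reached 1 FPKM (a fragment count scaled to transcript length and library size) in at least 3 of these 6 libraries, which 11838 of the 24930 gene symbols in the table did. The Bcathet titles name 1 altered β-catenin allele in the heterozygous state. The library names of the same samples carry CDX2HET and EXON3, while a further mutant set of 3 libraries, titled Cdx2het_Bcathet, has names with EXON3 alone. The labels therefore disagree on which mutant set carries the altered Cdx2 allele, and the title names are kept here. Control libraries are labelled by that word and the day only. The labels give no strain, age, sex or Cre driver. They number each library separately without saying that the animals differed, so the p-values speak only for the spread among libraries.

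β-catenin, encoded by Ctnnb1, carries the canonical WNT signal. Without WNT a destruction complex built on Axin and Apc marks it for degradation, and phosphorylation sites encoded in exon 3 are the mark. With WNT, or with an allele that lacks these sites, β-catenin reaches the nucleus and activates TCF/LEF target genes, which in the intestinal crypt sustain stem cells, proliferation and Paneth cells, the antimicrobial cells of the crypt base. Cdx2 is the homeodomain factor that sets intestinal identity.

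The libraries summed to between 630707 and 747478 FPKM. By a rough estimate, 1 FPKM rested on 16.8 to 19.0 fragments per kilobase of transcript. The estimate was read from the lowest values of long single-transcript genes within a narrow window set in advance. That window largely sets the result, so the estimate says little about depth. The first principal component, with 48.3% of the variance, put the Control libraries at −17.6, −17.9 and −20.8 and the Bcathet libraries at 9.80, 12.4 and 34.2, the last being day 10, which stood apart from days 8 and 9. The 13 pan-epithelial genes, among them Epcam and Cdh1, summed to 8831 to 9964 FPKM in Control and 9396 to 11258 in Bcathet, the labelled tissue. Genes of other cells were low. The 18 T cell genes summed to 101 to 161 FPKM in Control and to 109, 133 and 35.5 in Bcathet at days 8, 9 and 10. The fibroblast list summed to 7.11, 8.11 and 8.16 FPKM in Control and to 17.1, 18.7 and 4.22 in Bcathet at days 8, 9 and 10. Pdgfra stayed at or below 0.082, while Col3a1 read at most 0.036 in Control and 0.842, 1.58 and 0.0825 in Bcathet. Smooth muscle genes summed to 4.27 to 4.98 FPKM in Control and 6.30 to 7.98 in Bcathet, endothelial genes to 4.09 to 4.57 and 5.19 to 6.29 (Emcn at 0 in all 6), and glial and neuronal genes to 1.34 to 1.53 and 1.6 to 2.65 (Sox10 at 0 in all 6). These 3 sums were low and lay wholly above Control in Bcathet, and their part in the results was not tested. Xist lay at 27.0 to 39.4 FPKM in all 6 libraries.

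In Bcathet epithelium the innate sensor Alpk1 and its adaptor Tifa, the cytokine feedback inhibitor Socs3, complement C3, the phospholipase Pla2g5 and the bile acid receptor Nr1h4 were among the genes that rose, by 0.88 to 2.83 on the log2 scale. Cyclin D2 (Ccnd2), the defensin Defa6 and the enzymes Cmah and Aldh1b1 were among those that fell, with differences of −0.64 to −2.01. With limma on log2(FPKM + 1) and Benjamini-Hochberg adjustment, 35 genes passed at 0.05, or 0.296% of the genes tested. Of these, 23 were higher in Bcathet (0.194%) and 12 lower (0.101%). Among the 23, C3, Esr1, Hdc, Hebp2 and Serping1 entered the test through the Bcathet libraries alone, so they had to differ. Among the 12, Mir6968 likewise entered through the Control libraries alone. At an unadjusted p under 0.05 there were 2123 genes (17.9%), and the 3 Bcathet values lay wholly above the 3 Control values for 1387 genes (11.7%) and wholly below for 1558 (13.2%); gene lists are read against these shares. The median log2 difference over all genes was −0.004. Leaving out 1 library changed the count. It was 5, 16 and 1 without the Control library of day 8, 9 or 10, and 12, 10 and 73 without the Bcathet library of day 8, 9 or 10. Each such fit also has fewer libraries, so a lower count does not by itself mark the library left out as influential. Of the 35, Rpl30 passed in all 6 of these fits, Tifa and Pla2g5 in 5, Alpk1, Rpl34 and Defa6 in 3, and each other called gene in at most 2. With the day as a block 10 genes passed, 6 of them among the 35: Rpl30, Tifa, Pla2g5, Socs3, Cebpd and Gm14851. The other 29 lost their call in that fit, among them Alpk1 (adjusted p = 0.0893), C3 (0.0769), Ccnd2 (0.0986), Defa6 (0.111), Nr1h4 (0.111), Cmah (0.101) and Aldh1b1 (0.155). In a fit to all 9 libraries 27 genes passed, 17 of them among the 35. The remaining 18 lost their call there, among them Tifa (adjusted p = 0.117), Socs3 (0.127), Alpk1 (0.128), Nr1h4 (0.0899), Ccnd2 (0.186) and Cmah (0.0897). Scaling the libraries to equal totals gave 174 higher and 29 lower genes, 85.7% higher against 65.7%.

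**Figure D1:**
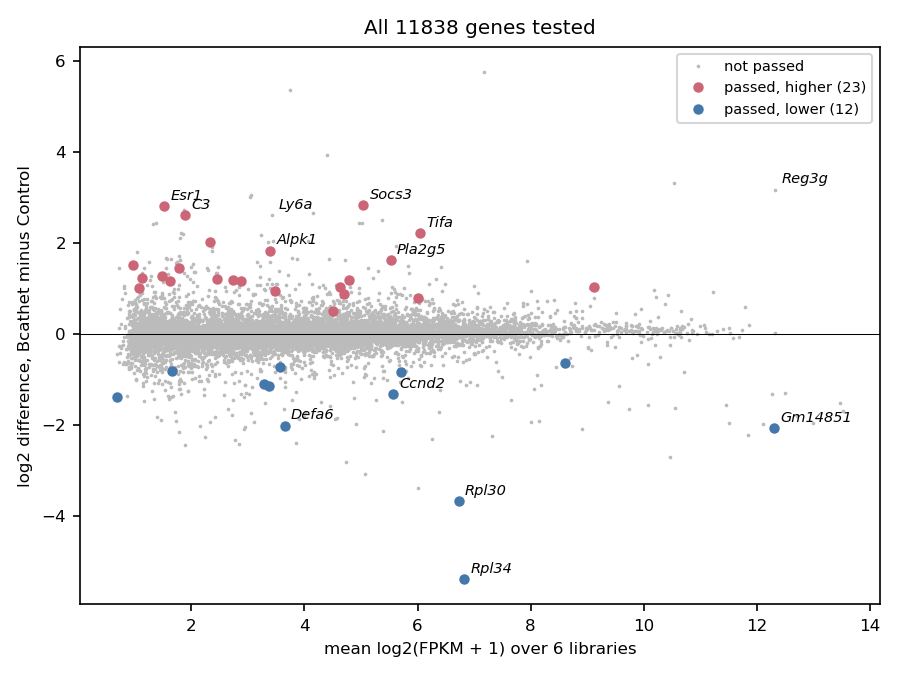
All 11838 genes tested, with the mean log2(FPKM + 1) over the 6 libraries on the horizontal axis and the log2 difference Bcathet minus Control on the vertical axis. Red points are the 23 genes that passed higher, blue points the 12 that passed lower and grey points the genes that did not pass; several of the largest differences, such as Reg3g at 3.18, are grey.

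Alpk1 and Tifa rose together. Alpk1, a kinase that detects bacterial ADP-heptose, read 5.04, 4.8 and 3.98 FPKM in Control at days 8, 9 and 10 and 19.7, 15.1 and 22.7 in Bcathet. Tifa, the adaptor that ALPK1 phosphorylates and that passes the signal to TRAF6 and NF-kB, read 33.2, 23.8 and 33.2 in Control and 158, 119 and 151 in Bcathet. All Bcathet values lay above all Control values for both genes. The log2 difference was 1.83 ± 0.15 (SE) for Alpk1 (adjusted p = 0.0146) and 2.22 ± 0.16 for Tifa (adjusted p = 0.013). They were the only pair of called genes that neighbour each other in RefSeq's gene order.

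Socs3, Cebpd, Junb and Icam1 rose as well. Socs3, the feedback inhibitor of JAK-STAT signalling, read 14.3, 8.15 and 12.4 FPKM in Control and 78.7, 66.1 and 125 in Bcathet, with the highest value at day 10 and no overlap (log2 difference 2.83 ± 0.29, adjusted p = 0.0457). Cebpd, a bZIP factor induced by cytokines, stood at 15.7, 17.3 and 18.8 against 39.0, 37.1 and 46.9 (1.20 ± 0.11, adjusted p = 0.021). Junb, an AP-1 subunit, averaged 48.2 ± 5.40 (SD, n = 3) in Control and 83.8 ± 3.93 in Bcathet (log2 difference 0.79, adjusted p = 0.0457). Icam1, a leukocyte adhesion molecule, was low, at 0.958 to 1.13 in Control and 2.98 to 4.62 in Bcathet (1.17, adjusted p = 0.0457). Socs3 and Junb are also members of a list of 16 tested immediate early and dissociation stress genes. Of that list 2 passed, both higher, 9 lay wholly above Control and 1 wholly below, with a median log2 difference of 0.30. Other members, Egr1 at 0.80, Jun at 0.56 and Fos at 0.32, did not pass, and the part of tissue handling in these values was not tested.

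The promoters of Socs3, Alpk1 and Icam1 are shown because these genes rose and share a motif for STAT factors, the transcription factors that SOCS3 holds back. Each is the 250 bases before the start in RefSeq's GRCm38.p6 table, a build other than the mm9 of the submitters' notes. Socs3 lies at chr11:117969367-117969616 on the minus strand, Alpk1 at chr3:127780528-127780777 on the minus strand and Icam1 at chr9:21015690-21015939 on the plus strand. Capitals mark the STAT motif TTCNNNGAA and, in Alpk1, an overlapping NF-kB motif. The hits begin 154 bases before the start in Socs3, 114 (STAT) and 110 (NF-kB) in Alpk1, and 42 in Icam1.
Socs3: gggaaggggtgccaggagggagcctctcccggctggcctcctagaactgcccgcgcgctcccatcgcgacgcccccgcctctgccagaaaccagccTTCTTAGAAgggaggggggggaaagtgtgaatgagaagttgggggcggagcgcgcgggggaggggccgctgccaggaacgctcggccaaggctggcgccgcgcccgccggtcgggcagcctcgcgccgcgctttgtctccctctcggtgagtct
Alpk1: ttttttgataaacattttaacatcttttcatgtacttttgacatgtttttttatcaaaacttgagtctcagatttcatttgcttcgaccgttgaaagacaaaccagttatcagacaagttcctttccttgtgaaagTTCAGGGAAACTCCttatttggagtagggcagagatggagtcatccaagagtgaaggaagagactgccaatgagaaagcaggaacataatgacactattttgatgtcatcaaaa
Icam1: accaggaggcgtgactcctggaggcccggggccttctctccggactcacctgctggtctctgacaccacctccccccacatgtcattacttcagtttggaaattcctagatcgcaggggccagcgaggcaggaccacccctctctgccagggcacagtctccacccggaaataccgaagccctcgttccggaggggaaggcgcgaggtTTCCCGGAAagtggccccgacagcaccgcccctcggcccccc

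The motif search was chosen after the values were seen, on both strands. Windows were found for 19 of the 23 genes called higher, 25 windows in all. The STAT motif was present in 5 of these windows, those of Alpk1, Esr1, Icam1, Reg3d and Socs3, and in 7.02% of all 32851 windows of the same length. The NF-kB motif, as a single strict pattern, was found in 1 called-higher gene, Alpk1, and in 3.9% of all windows. That pattern did not count looser variants. The Icam1 window holds TGGAAATTCC, which resembles the Alpk1 hit GGGAAACTCC and was not counted. A window without a counted hit may therefore still hold an NF-kB site. The TCF/LEF motif CTTTGAT was found in 1 called-higher gene, Hdc, and in 3.21% of all windows. The AP-1 motif TGANTCA was in none of the 25 windows and in 6.75% of all. A match describes these letters only. Of the 12 genes called lower, 6 had a window, 9 windows in all. None of the 9 held the STAT motif, 1 held the TCF/LEF motif (Cmah), and 2 held the NF-kB motif (Aldh1b1 and Ky).

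**Figure D2:**
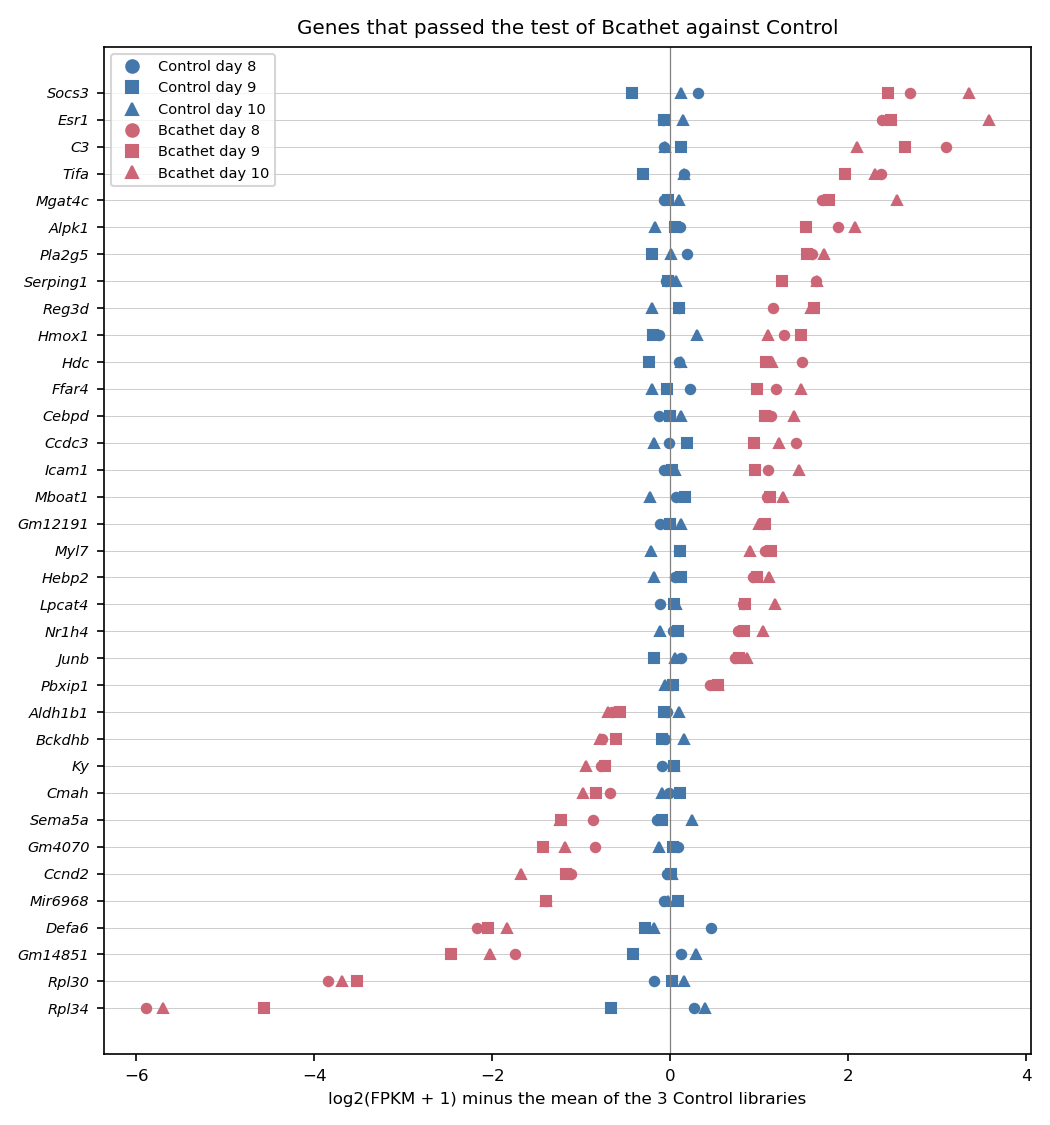
The 35 called genes, one per line, with log2(FPKM + 1) minus the Control mean on the horizontal axis; blue is Control and red Bcathet, and circles, squares and triangles are days 8, 9 and 10. No red point overlaps the blue points of its gene, and Rpl34, with Control day 9 lower than days 8 and 10, has the widest Control spread.

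C3 and Serping1 rose from near 0. C3, the central complement component, read 0.422, 0.630 and 0.436 FPKM in Control and 11.8, 8.30 and 5.40 in Bcathet (log2 difference 2.61 ± 0.24, adjusted p = 0.0243). Serping1, the C1 inhibitor, read 0.127 to 0.214 in Control and 1.79 to 2.66 in Bcathet (1.52 ± 0.15, adjusted p = 0.0243). The groups did not overlap for either gene. Both are also expressed by stromal cells. The 18 fibroblast genes summed to 7.11, 8.11 and 8.16 FPKM in Control and 17.1, 18.7 and 4.22 in Bcathet. Dcn read at most 0.032 in Control and 2.34, 1.77 and 0.324 in Bcathet, and Col3a1 at most 0.036 in Control and 0.842, 1.58 and 0.0825 in Bcathet. The part of stromal RNA in C3 and Serping1 was not tested. C3 and Serping1, like Esr1, Hdc and Hebp2, entered the test through the Bcathet libraries alone: 45 genes did so, and 5 of them passed. A gene that enters in this way had to differ.

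Antimicrobial and inflammatory epithelial genes lay mostly higher, with 1 call. Pla2g5, a secreted phospholipase A2, read 29.0, 21.9 and 25.5 FPKM in Control and 78.4, 75.6 and 86.2 in Bcathet (1.62 ± 0.11, adjusted p = 0.0109). Of 17 tested antimicrobial and inflammatory epithelial genes, Pla2g5 alone passed, 9 lay wholly above Control and none wholly below, and the median log2 difference was 0.90. Reg3d, a member of the Reg3 lectin family outside that list, rose from 1.23, 1.23 and 0.812 to 3.64, 5.38 and 5.25 (1.45 ± 0.16, adjusted p = 0.0365). The abundant members of the family, bactericidal lectins of the gut surface, did not pass. Reg3b read 3803, 1150 and 2322 in Control and 23215, 15581 and 36442 in Bcathet (3.45 ± 0.51, adjusted p = 0.0759). Reg3g read 2738, 1147 and 1586 and then 15903, 10026 and 23130 (3.18 ± 0.42, adjusted p = 0.0617). Every Bcathet library lay above every Control library for both, with day 10 highest and day 9 lowest among the mutants. Reg3a, Reg3b, Reg3d and Reg3g together summed to 4288 ± 2160 FPKM in Control and 41529 ± 17121 in Bcathet, a ratio of 9.69.

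Duox2, Duoxa2 and Lcn2 lay higher without passing. Duox2, which makes hydrogen peroxide at the epithelial surface, read 27.0, 23.9 and 21.9 FPKM in Control and 90.6, 65.1 and 145 in Bcathet (1.93, adjusted p = 0.075). Its maturation factor Duoxa2 read 10.7, 11.6 and 15 and then 62.7, 45.3 and 129 (2.45, adjusted p = 0.084). Lcn2, a siderophore-binding protein, read 5.16, 5.22 and 8.22 and then 62.7, 20.2 and 66.7 (2.67, adjusted p = 0.0995). None of the 3 passed, and for none did the groups overlap. Without the Bcathet day-10 library Duox2 (adjusted p = 0.0196) and Duoxa2 (adjusted p = 0.0224) passed, in a fit in which 0.617% of all genes did. Markers of phagocytes also lay higher as a sum, but with another order of days. The 13 macrophage and dendritic cell genes summed to 19.0 to 27.7 FPKM in Control and 38.7, 39.9 and 34.7 in Bcathet at days 8, 9 and 10. Tested members had median log2 deviations from the Control mean of 0.56, 0.50 and −0.14 in those Bcathet libraries. The highest member of that list, Cd14, which epithelium can also express, read 9.37 to 14.6 and then 17.7 to 24.9. All 5 tested members had positive differences (median 0.29), but only Cd14 lay wholly above Control and none passed. Cd68 read 2.06, 2.87 and 3.37 in Control and 4.19, 4.38 and 2.36 in Bcathet, with overlap. Csf1r stayed at or below 0.257 and Adgre1 at or below 0.104. The part of phagocyte RNA in the defence genes was not tested.

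**Figure D3:**
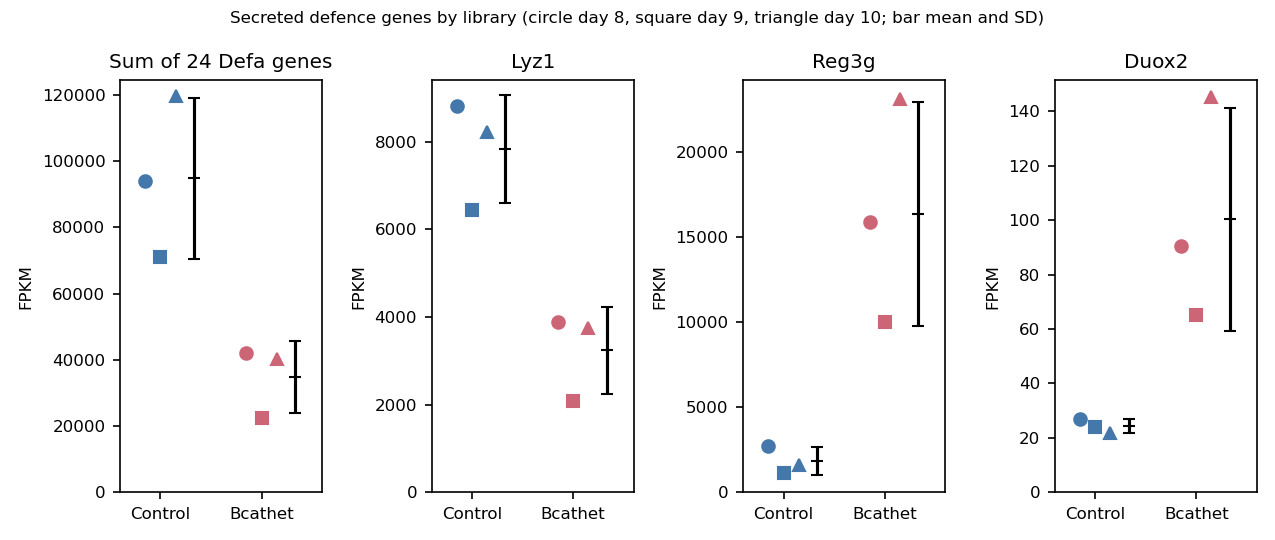
FPKM by library for the sum of 24 Defa genes, Lyz1, Reg3g and Duox2, with blue for Control, red for Bcathet, circle, square and triangle for days 8, 9 and 10, and a bar for mean and SD of the 3 libraries. The defensin sum and Lyz1 lie lower in all 3 Bcathet libraries and Reg3g and Duox2 higher, with no overlap in any panel.

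Defa6 and Gm14851 fell, and most other Paneth cell genes lay lower. Defa6, an alpha-defensin, fell from 33.8, 19.7 and 21.3 FPKM to 4.62, 5.13 and 6.09 (−2.01 ± 0.21, adjusted p = 0.0365). Gm14851, whose transcript matches the defensin copy Defa-ps7 at 98.214% over 168 bases, fell from 11294, 7796 and 12740 to 3108, 1887 and 2552 (−2.08 ± 0.25, adjusted p = 0.0473). Of 27 Paneth cell genes tested, Defa6 alone passed, 15 lay wholly below Control and none wholly above, and the median log2 difference was −1.30 (−1.24 with equal totals). Lyz1, lysozyme of the Paneth granule, read 8820, 6449 and 8211 and then 3877, 2091 and 3747, without overlap and without passing (−1.31 ± 0.26, adjusted p = 0.105). Ang4 read 2144, 3058 and 7238 against 798, 322 and 667 (adjusted p = 0.105), and Clps, colipase, read 765, 771 and 1614 against 313, 172 and 228 (adjusted p = 0.0976). All 24 defensin genes summed to 93968, 70953 and 119626 FPKM in Control and 41948, 22441 and 40294 in Bcathet, a ratio of 0.368.

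The Paneth list was not uniform. Mmp7, the protease that activates defensins, read 388 ± 88.1 FPKM in Control and 371 ± 144 in Bcathet (log2 difference −0.13), and Spink4 read 3269 ± 1107 and 2990 ± 482 (−0.09). Pla2g2a, the secreted phospholipase of Paneth granules, read 132, 93.7 and 8269 in Control and 3841, 2693 and 10178 in Bcathet, so that Control day 10 stood with the mutants (adjusted p = 0.391). In bulk RNA, fewer Paneth cells and less defensin RNA per Paneth cell cannot be told apart. Several defensins are near-identical, so that a single gene's share is less certain than the sum: Defa23 and Defa31 transcripts matched at 100% over 377 bases, and Defa30 and Defa24 at 98.237% over 397.

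Other epithelial lineages showed no call. All 11 tuft cell genes tested had negative differences, 5 of them wholly below Control, with a median of −0.74. The daily differences between groups had medians of −0.01, −0.55 and −1.67 at days 8, 9 and 10, and the list median was −0.40 without the Bcathet library of day 10. Trpm5, the tuft cell channel, read 5.28, 6.84 and 7.97 FPKM in Control and 4.86, 4.28 and 1.33 in Bcathet (adjusted p = 0.30), and T cell genes were also lowest in the Bcathet library of day 10. Of 16 goblet cell genes, 1 lay wholly above and 3 wholly below (median −0.13). The goblet gene with the largest difference, Retnlb, read 2.20, 11.5 and 66.7 FPKM against 77.8, 26.2 and 201, with overlap (2.44, adjusted p = 0.375). Clca1 read 325, 422 and 911 against 157, 158 and 88.2 (−1.94, adjusted p = 0.118), and Ang, the 1 gene wholly above, differed by 0.40 (adjusted p = 0.123). Of 17 enteroendocrine genes, 2 lay wholly above and 4 below (median 0.02), with Reg4 at 257, 310 and 512 against 134, 87.1 and 32.1 (adjusted p = 0.133) and somatostatin, Sst, at 82.0 to 96.0 against 76.1, 32.7 and 10.9 (adjusted p = 0.303). Of 31 enterocyte genes, 5 lay wholly below and none above (median −0.31), with daily medians of −1.09, 0.35 and −0.14, so that day 9 went the other way. Lactase, Lct, read 138, 50.3 and 48.1 against 11.6, 21.1 and 2.58 (−2.82, adjusted p = 0.155). Of 26 xenobiotic metabolism genes, 8 lay wholly below and 1 above (median −0.78), with the cytochrome Cyp3a11 at 164, 58.9 and 92.9 against 18.5, 39.4 and 0.953 (−3.08, adjusted p = 0.25). Their daily medians were −1.20, 0.16 and −1.18, again with day 9 on the other side, and the median was −0.46 without the Bcathet library of day 10. Control day 8 was the highest library for both Lct and Cyp3a11.

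Cell cycle genes lay lower almost throughout, and 1 cyclin passed. Ccnd2, cyclin D2, which drives entry into S phase, fell from 72.2, 74.5 and 75.1 FPKM to 33.7, 32.4 and 22.5 (−1.32 ± 0.15, adjusted p = 0.0365). All 31 S phase genes and all 30 G2/M genes tested had negative differences, also with equal totals. Of the 61, none passed and 53 lay wholly below Control, where 13.2% of all genes did; medians were −0.39 for S phase and −0.27 for G2/M. The differences were small: the ratio of mean FPKM ran from 0.633 to 0.927, and adjusted p from 0.0617 to 0.588. Genes of 1 programme vary together and are not independent counts. Ccne2, cyclin E2, read 4.38, 4.28 and 4.55 against 2.89, 2.72 and 2.75 (−0.51 ± 0.08, adjusted p = 0.0695), and the mitotic kinase Ttk read 9.12, 10.6 and 9.97 against 6.87, 6.09 and 6.05 (−0.57 ± 0.09, adjusted p = 0.0617). The proliferation antigen Mki67 read 43.5 to 43.8 against 28.6 to 36.9 (adjusted p = 0.114). Of 17 Myc, cyclin and CDK inhibitor genes, Ccnd2 passed and 5 lay wholly below. Myc itself, a WNT target, read 63.2, 60.2 and 54.2 against 65.5, 59.0 and 67.1 (0.11, adjusted p = 0.572), and Ccnd1 differed by 0.12 (adjusted p = 0.756).

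**Figure D4:**
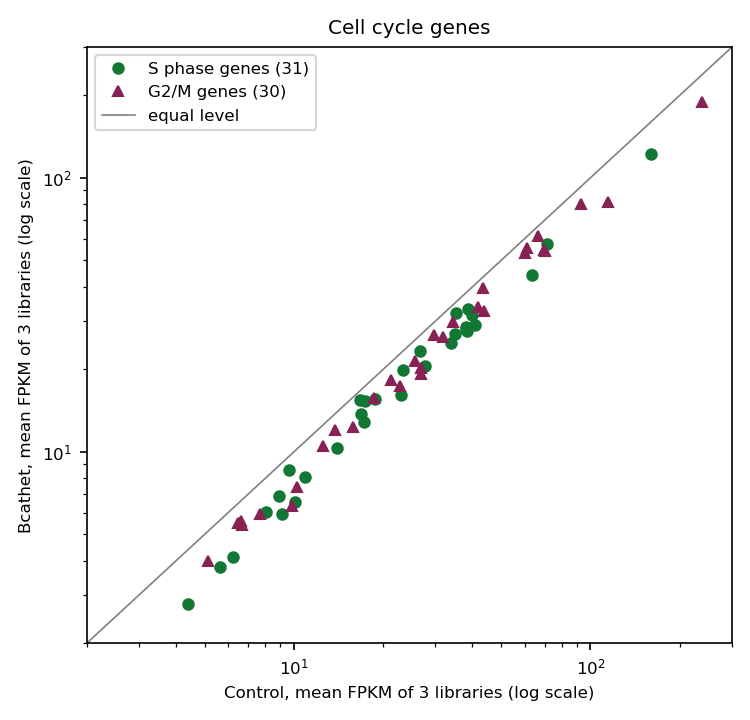
Mean FPKM of 3 Control libraries (horizontal) and 3 Bcathet libraries (vertical), both on log scales, for 31 S phase genes (green circles) and 30 G2/M genes (purple triangles), with a line of equal level. All 61 points lie under the line, close to it, at ratios of 0.633 to 0.927.

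WNT pathway genes held no call. Ctnnb1, the targeted gene, read 207, 193 and 187 FPKM in Control and 218, 211 and 239 in Bcathet, all Bcathet values being higher (0.19 ± 0.08, adjusted p = 0.307). A gene level checks nothing about a deleted exon. Of 16 WNT target and feedback genes tested, 3 lay wholly above Control and 1 wholly below, near the background, with a median of 0.24. The daily medians were 0.46, 0.05 and −0.01 at days 8, 9 and 10. Axin2, the feedback inhibitor in the destruction complex, read 41.0, 38.0 and 34.2 against 56.3, 47.5 and 37.4, so that Bcathet day 10 fell within the Control range (0.30 ± 0.15, adjusted p = 0.356). Nkd1, another feedback inhibitor, read 2.26, 1.88 and 2.25 against 6.48, 5.31 and 1.4. It passed without Bcathet day 10 (adjusted p = 0.0224), in a fit in which 0.617% of all genes did. That library lay below every Control value for Nkd1. No member of the WNT target list passed with any other library left out. Tnfrsf19, also on the stem cell list, had the largest difference of the WNT target list (0.95, adjusted p = 0.315). It read 3.33, 2.26 and 2.98 against 12.0, 6.80 and 3.00, with overlap. The 3 members wholly above were Sp5 (0.72, adjusted p = 0.114), Rnf43 (0.42, adjusted p = 0.114) and Ephb3 (0.39, adjusted p = 0.193), and the 1 below was Ephb2 (−0.26, adjusted p = 0.193). Of 13 destruction complex genes and partners, 2 lay above and none below (median 0.04). One was Ctnnb1 and the other Tcf7l2, the main TCF of the gut (0.57, adjusted p = 0.105).

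Stem cell markers were mixed. Lgr5, the R-spondin receptor of crypt base stem cells, read 11, 9.48 and 11.4 FPKM in Control and 25.6, 11.9 and 9.79 in Bcathet, so that day 8 alone stood high (0.42 ± 0.34, adjusted p = 0.568). Olfm4, an abundant stem cell marker, read 964, 1139 and 1091 against 1003, 699 and 573 (−0.52 ± 0.20, adjusted p = 0.252). The groups overlapped for both. Of 20 markers, none passed, 4 lay wholly above and none below, with a median of 0.02. Igfbp4 showed the largest of these, at 20.0, 21.9 and 29.1 against 81.8, 56.4 and 52.3 (1.38 ± 0.21, adjusted p = 0.0667), and Gkn3 read 15.1 to 17.7 against 31.5, 28.2 and 20.2 (0.62, adjusted p = 0.133). Cdx2 read 139, 114 and 108 against 126, 131 and 144, with overlap (0.16, adjusted p = 0.517). Of 17 intestinal identity factors, 3 lay wholly above and 1 below, none passing.

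Genes of fetal and regenerating epithelium lay higher without a call in that direction. Of 17 tested members of a list of 28, 11 lay wholly above Control, against 11.7% of all genes, and 2 wholly below, with a median of 0.73; the 1 member that passed was Ccnd2, lower. Ly6a (Sca-1), a marker of regenerating epithelium, read 3.36, 3.07 and 3.70 FPKM in Control and 19.7, 14.5 and 58.8 in Bcathet, with day 10 highest (2.61 ± 0.49, adjusted p = 0.105). Clu, clusterin, a marker of revival stem cells, read 0.925, 1.13 and 0.768 against 8.95, 7.09 and 1.42, with day 10 lowest (1.58 ± 0.53, adjusted p = 0.221). Without the Bcathet day-10 library both passed, Ly6a at an adjusted p of 0.00472 and Clu at 0.00384, in a fit in which 0.617% of all genes did. Neither passed with any other library left out. Anxa3 read 1.54, 1.23 and 0.954 against 3.83, 3.10 and 2.53 (0.88, adjusted p = 0.0878), and the barrier protein Sprr2a3 read 27.6, 29.7 and 43.3 against 82.8, 82.3 and 123 (1.49, adjusted p = 0.0702), a gene whose reads near-identical copies could share. Areg, an EGF receptor ligand, averaged 2.01 ± 0.828 against 7.42 ± 3.17 (1.45, adjusted p = 0.13). Of 11 tested YAP and TEAD target genes, 3 lay wholly above and 1 below (median 0.11).

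Interferon response genes lay somewhat higher, most at day 10. Of 32 tested, none passed, 12 lay wholly above and none below, with a median of 0.30 and daily medians of 0.06, 0.34 and 0.59, and a median of 0.17 without the Bcathet library of day 10. Zbp1, a nucleic acid sensor, read 24.4, 14.0 and 17.3 FPKM against 27.8, 35.5 and 67.7 (1.12, adjusted p = 0.205), and the GTPase Igtp read 12.3 to 13.8 against 15.4, 23.8 and 59.8 (1.07, adjusted p = 0.306). Of 13 MHC genes, none lay apart in either direction. Glycolysis and hypoxia genes had the same order of days, with 8 of 22 wholly above, none below, a median of 0.26 and daily medians of −0.02, 0.33 and 0.48, and a median of 0.10 without that library. Hk2, hexokinase, read 8.63, 8.52 and 9.53 against 14.7, 11.4 and 28.7 (0.86, adjusted p = 0.247), and Vegfa, the endothelial growth factor, read 13.4, 11.6 and 12.4 against 21.5, 19.2 and 28.3 (0.82, adjusted p = 0.0793).

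**Figure D5:**
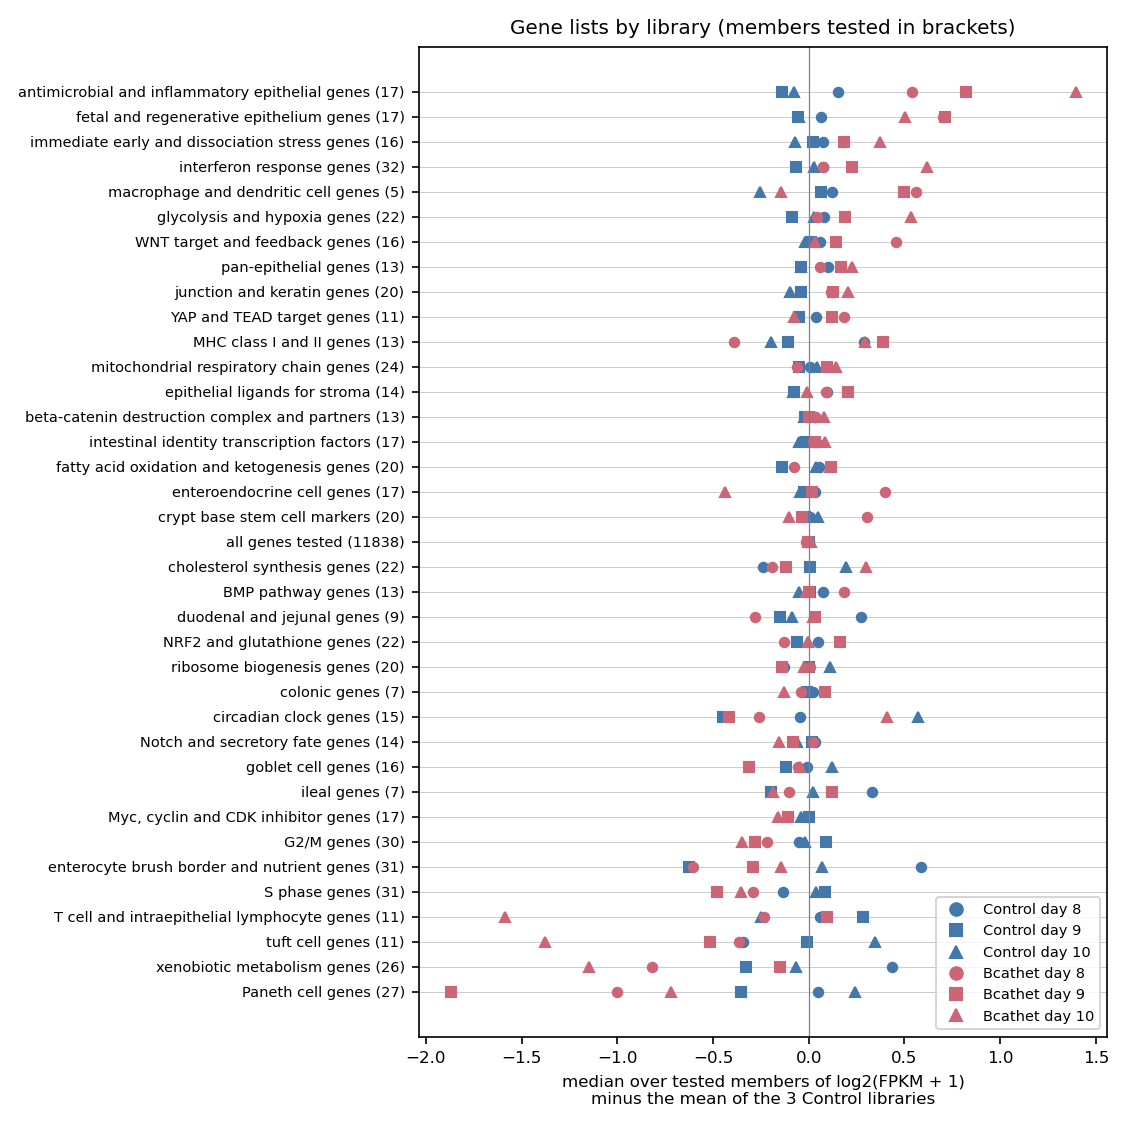
Gene lists by library, as the median over tested members of log2(FPKM + 1) minus the Control mean, with the number of members tested in brackets; blue is Control, red Bcathet, and circles, squares and triangles are days 8, 9 and 10. Paneth, S phase and G2/M lists lie left of Control in all 3 Bcathet libraries and the antimicrobial and the fetal and regenerative lists right of it, while tuft and T cell lists lie farthest left at day 10.

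Nr1h4, Ffar4, Mboat1, Lpcat4, Esr1 and Mgat4c rose. Nr1h4 (FXR), the nuclear receptor for bile acids, rose from 18.5, 19.3 and 16.7 FPKM to 31.5, 33.1 and 38.4 (0.88 ± 0.10, adjusted p = 0.0365). Ffar4 (GPR120), a receptor for long-chain fatty acids, rose from 3.23, 2.53 and 2.14 to 7.26, 6.09 and 9.01 (1.21 ± 0.16, adjusted p = 0.0477). The lysophospholipid acyltransferases Mboat1 (1.16 ± 0.12, adjusted p = 0.0263) and Lpcat4 (0.94 ± 0.12, adjusted p = 0.0457) also passed, higher. Esr1, estrogen receptor α, rose from at most 0.198 to 4.62, 5.03 and 12.0 (2.81 ± 0.32, adjusted p = 0.0457). It entered the test through the Bcathet libraries alone, so it had to differ. Mgat4c, a glycosyltransferase of N-glycan branching, averaged 1.5 ± 0.156 and 9.48 ± 3.59 (2.02 ± 0.22, adjusted p = 0.0368), highest at day 10 (13.6).

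The remaining genes that rose had differences of 0.51 to 1.28. Hmox1, heme oxygenase, rose from 0.577 to 1.22 FPKM in Control to 2.85 to 3.98 (1.28 ± 0.17, adjusted p = 0.0477) and was the 1 member that passed among 22 NRF2 and glutathione genes, of which 6 lay wholly above and 3 below (median −0.05). Akr1b8, an aldo-keto reductase of that list, came close, at 8.56, 6.29 and 5.51 against 18.5, 30.8 and 22.7 (1.67, adjusted p = 0.0528). Hdc, histidine decarboxylase (1.24, adjusted p = 0.0487), Ccdc3 (1.19, adjusted p = 0.0457), the myosin light chain Myl7 (1.03, adjusted p = 0.0365), Hebp2 (1.01, adjusted p = 0.0477) and Pbxip1 (0.51, adjusted p = 0.0477) completed the list, apart from Gm12191. Pbxip1 had little spread, at 17.3 to 18.5 in Control and 25.0 to 26.7 in Bcathet. Hdc and Hebp2 entered the test through the Bcathet libraries alone, so they had to differ.

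Cmah, Aldh1b1, Bckdhb, Sema5a, Ky and Mir6968 fell. Cmah, which converts sialic acid to its glycolyl form, fell from 67.9, 74.1 and 64.2 FPKM to 42.8, 38.1 and 34.4 (−0.83 ± 0.10, adjusted p = 0.0457). Aldh1b1, a mitochondrial aldehyde dehydrogenase, fell from 470, 461 and 519 to 306, 327 and 298 (−0.64 ± 0.08, adjusted p = 0.0477). Bckdhb, a subunit of the branched-chain ketoacid dehydrogenase, differed by −0.72 and the guidance cue Sema5a by −1.11, each with an adjusted p of 0.0477. Ky differed by −0.82 (adjusted p = 0.0477). Mir6968 was at 1.51, 1.79 and 1.57 in Control and listed at 0 in all 3 Bcathet libraries (adjusted p = 0.0208). These Control values lie near the filter of 1 FPKM, and Mir6968 read 1.75, 0 and 0 in Cdx2het_Bcathet at days 8, 9 and 10. It entered the test through the Control libraries alone, as 39 genes did, of which it was the 1 that passed, so it had to differ. The naming rule added 2 genes that did not pass. They were Rbp7, a retinol-binding protein, at 24.6, 30.3 and 28.2 against 9.93, 6.53 and 4.70 (−1.88, adjusted p = 0.0528), and Far2, a fatty acyl-CoA reductase, at 77.7 to 78.7 against 48.6 to 55.7 (−0.55, adjusted p = 0.054).

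The largest falls were in ribosomal protein genes with near-identical copies, and their single-gene values are uncertain. Rpl30 read 335, 383 and 422 FPKM in Control and 25.5, 32.2 and 28.5 in Bcathet (−3.68 ± 0.12, adjusted p = 0.000112). Gm12191, whose transcript matched that of Rpl30 at 99.713% over 348 bases, read 356, 384 and 420 against 800, 809 and 771 (1.04 ± 0.09, adjusted p = 0.0146). Their sum was 766 ± 75.2 in Control and 822 ± 21.2 in Bcathet, a ratio of 1.07. Rpl34 read 880, 461 and 957 against 11.3, 29.9 and 13.1 (−5.38 ± 0.44, adjusted p = 0.0259). Its copy Rpl34-ps1, matching at 99.435% over 354 bases, read 1.92, 505 and 4.09 against 1028, 1033 and 1115, so that Control day 9 was divided between the pair. Together the pair summed to 937 ± 47.3 and 1076 ± 45.9, a ratio of 1.15. Gm4070 (−1.15, adjusted p = 0.0477) likewise matched Gvin1 at 99.967% over 9005 bases. In all, 5 of the 35 called genes had such a copy, at 98% identity or more over at least 150 bases.

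The 2 mutant sets share their Control libraries, so their values are given side by side. Tifa read 137, 34.8 and 150 FPKM in Cdx2het_Bcathet at days 8, 9 and 10, Socs3 74.7, 14.5 and 107, and Ccnd2 18.8, 54.5 and 16.1. The day-9 library of that set, which for these 3 genes lay nearest to Control, also had Xist at 0.1 FPKM, against 27.0 to 39.4 in the 6 libraries compared here. Rpl30 read 25.8, 23.4 and 21.4 there and Pla2g5 76.7, 64.6 and 61.8, with no such exception. Cdx2 read 188, 178 and 196 in Cdx2het_Bcathet, above all Control and Bcathet libraries. In a limma fit to all 9 libraries, Bcathet and Cdx2het_Bcathet differed for 0 genes (0.0%), with 363 (3.07%) at an unadjusted p under 0.05. Myl7, higher in Bcathet than Control by 1.03, differed by −0.06 between Cdx2het_Bcathet and Control, and the difference between the mutant sets did not pass (adjusted p = 0.209).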

How the data were processed

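RNA of mouse intestinal epithelium was measured by paired-end sequencing of poly(A) RNA, per the labels' protocols. The deposited values are FPKM, a unit inferred from the values because no source states it: they are not whole, and each library has the same median ratio, 1.00276, to the gene-wise geometric means of 15138 genes, as size-factor scaling gives. Build mm9, kallisto 0.46.1 and DESeq2 1.40.1 appear in the submitters' processing notes, with no role for each. The sources used here give neither annotation nor filters.

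Samples were grouped by title. limma 3.58.1 in R 4.3.3 (trend and robust options) was fitted to log2(FPKM + 1) of the 6 libraries, with Benjamini-Hochberg adjustment over the 11838 genes reaching 1 FPKM in 3 or more libraries and a threshold of 0.05. A log2 difference with a pseudocount of 1 understates the change of low genes. Alternatives were a pseudocount of 0.1, no filter, a minimum of 5 FPKM, equal totals, the day as a block, all 9 or 8 libraries, library weights and each library left out. Near-identical transcripts were found with blastn 2.17.0 in GENCODE M21, and promoter windows come from RefSeq (GRCm38.p6).

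The comparison, the 43 gene lists and the tests were chosen with earlier results of these data known. Not every gene that the following rule picks is printed. The text names 8 fixed genes (Ctnnb1, Cdx2, Axin2, Lgr5, Olfm4, Ly6a, Clu, Lyz1), up to 15 called genes per direction whose mean log2 value was 2 or more, with no overlap and a proper symbol (filled to 10 by the smallest p), and, from each list it describes, up to 4 called members or up to 3 with the largest difference, with the highest genes of other cell types. Picked after seeing their values were C3, Esr1, Serping1, Reg3d, Hdc, Hebp2, Icam1, Ky, Mir6968, Gm14851, Gm12191, Gm4070, Rpl34-ps1, Duox2, Duoxa2, Mmp7, Spink4, Retnlb, Ang, Emcn, Sox10, Trpm5, Nkd1, Ephb2, Ephb3, Myc, Ccnd1, Mki67, Egr1, Jun, Fos, Anxa3, Xist, the cell type genes given at or near 0, and the 2 defensin pairs.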

Additional observations from a re-analysis of the deposited data

How the results depend on the processing

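The 35 calls (23 higher, 12 lower) became 10 without a filter on low values (7 and 3), 203 with equal totals (174 and 29, with the median of all genes moved to 0.053), 134 in a fit of 8 libraries without Cdx2het_Bcathet replicate 2 (82 and 52), and 85 with library weights (60 and 25). A fit to all 9 libraries gave 27 (16 and 11), 17 of them among the 35. With the replicate block (day) there were 10 (5 and 5), 6 of them among the 35. The labels pair libraries by day after induction. Over all genes tested, same-day libraries did not deviate together (r = −0.186, 0.025 and 0.019). Some lists did follow the day in both groups, while others, such as the enterocyte list, did not. Circadian clock medians, as log2 minus the Control mean, were −0.04, −0.45 and 0.57 in Control and −0.26, −0.42 and 0.41 in Bcathet. Cholesterol synthesis medians were −0.24, 0.005 and 0.20 in Control and −0.19, −0.12 and 0.30 in Bcathet. Leaving out each library gave 1 to 73 calls, 0 to 59 higher and 1 to 14 lower. Between the mutant sets, 0 calls became 2 with a pseudocount of 0.1, 3 with library weights, and 0 to 1 leaving out each library. The 35 genes kept their direction in every alternative that gave a value, and 34 lost their call without Control replicate 3. Uncalled genes near 0 turned direction: leaving out each library gave −0.078 to 0.235 for Ccnd1, −0.33 to 0.25 for Mmp7 and −0.25 to 0.17 for Spink4 on the log2 scale. The causes were not tested. Depth may limit low genes. The estimate of 16.8 to 19.0 fragments per kilobase at 1 FPKM was largely set by its window and says little about this.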

Other observations

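Some genes with large differences did not pass and belong to no group above; they were chosen after their values were seen. Lrg1, a secreted acute-phase glycoprotein, read 0.754, 0.291 and 2.99 FPKM in Control and 73.0, 27.0 and 306 in Bcathet at days 8, 9 and 10 (log2 difference 5.37 ± 0.92, limma adjusted p = 0.0942). B3galt5, a galactosyltransferase of glycan chains, read 9.20, 3.06 and 2.76 against 63.7, 61.9 and 139 (3.95 ± 0.50, adjusted p = 0.055). The homeobox gene Msx1 read at most 0.0902 in Control and 7.49, 7.20 and 1.78 in Bcathet (2.43 ± 0.44, adjusted p = 0.0995). The groups did not overlap for Lrg1 and B3galt5. Msx1 entered the test through the Bcathet libraries alone, so it had to differ and its adjusted p adds no evidence. Its pass without the Bcathet day-10 library (2.95, adjusted p = 0.000558) has the same limit, in a fit in which 0.617% of all genes passed.

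Fatty acid oxidation genes had no call among 20 tested, with 3 wholly above Control, 1 wholly below and a median of 0.03. Acadl, an acyl-CoA dehydrogenase, read 54.0, 41.2 and 57.4 FPKM against 122, 109 and 214 (1.47, adjusted p = 0.104). Cybrd1, a duodenal iron reductase, read 3.36 to 3.53 against 13.0, 30.5 and 17.2 (2.17, adjusted p = 0.0602). Red cell genes summed to 3.89 to 7.04 FPKM in Control and 39.6, 22.8 and 6.97 in Bcathet at days 8, 9 and 10. Cholesterol synthesis, ribosome biogenesis, mitochondrial respiratory chain and circadian clock lists held no call, with medians of −0.01, −0.06, 0.05 and −0.10.

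Lists of signalling and regional identity held no call either. Of 20 junction and keratin genes, 6 lay wholly above Control and 1 below (median 0.11), with the pore-forming claudin Cldn2 at 110, 113 and 97.8 FPKM against 161, 143 and 187 (0.61, adjusted p = 0.0931). Of 13 BMP pathway genes, 3 lay above and 1 below (median −0.03), with the target Id1 at 88.9, 79.9 and 67.1 against 106, 129 and 137 (0.65, adjusted p = 0.105). Of 14 Notch and secretory fate genes, none lay above and 1 below (median −0.10): Nrarp, a Notch feedback inhibitor, read 31.4, 36.0 and 29.6 against 18.5, 20.8 and 24.3 (−0.59, adjusted p = 0.101). Of 14 epithelial ligands for stroma, 3 lay above and 1 below (median 0.04). Duodenal and jejunal, ileal and colonic lists had 9, 7 and 7 tested members with medians of −0.04, −0.14 and −0.06, and the gastric list had 3.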
